A study of Mus musculus with 10 samples.

Results

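Alveolar cells of the mouse lung in which Fosb and Atf3 transcripts were both plentiful, hereafter immediate-early high cells, numbered 2247 among 18400 eligible cells, or 12.2%. Cells were eligible when they had at least 1000 genes, at most 50000 unique molecular identifiers (UMIs, each marking 1 captured transcript), at most 15% mitochondrial UMIs, no UMI of the leukocyte gene Ptprc, at least 5 UMIs of the surfactant gene Sftpc and fewer than 5 UMIs of Hspa1a and Hspa1b together. Immediate-early high cells were those with at least 2 UMIs of Fosb and at least 2 of Atf3. They were set against the 9007 comparison cells of the same libraries that had no UMI of either gene, and the remaining 7146 eligible cells lay between.

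The cells came from lungs of mice in which tamoxifen-activated Cre, driven by the Sftpc locus and hence acting in alveolar type 2 (AT2) cells, had switched on a multicolour reporter. In Sftpc-CreERT2; R26R-Confetti mice both red (RFP) and yellow (YFP) cells were wildtype. In Sftpc-CreERT2; Red2Kras mice RFP marked mutant cells, and YFP marked wildtype cells of the same lungs. There was 1 Confetti library of each colour, which the methods place at 2 weeks though the labels give no time, and there were 2 libraries of each colour at 4 days and 2 at 2 weeks after induction in Red2Kras mice, making 10 in all. The mice were 8 weeks old and of both sexes, and had received 3 doses of tamoxifen at 0.2 mg per g of body weight. EpCAM-positive cells of each colour were sorted from at least 2 pooled lungs per sample after digestion for 45 min at 37 °C. All libraries shared that digestion, so transcription in the lung and transcription begun during dissociation cannot be told apart here. The labels do not say that replicates 1 and 2 came from separate animals, so p-values measure the spread between these libraries. The methods spread library making over 2 days that the labels do not assign to samples, so the day could not be used as a term.

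Immediate-early genes are transcribed within minutes of a stimulus, without new protein synthesis, because the factors that switch them on are already present in the cell. Many encode transcription factors, such as the FOS, JUN and ATF subunits of AP-1, the EGR zinc-finger proteins and the NR4A receptors. Others encode phosphatases and mRNA-decay proteins that end the response, and their short-lived transcripts make the response transient. In the alveolus, AT2 cells make surfactant, renew themselves and give rise to the flat type 1 (AT1) cells.

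The whole series held 42012 barcodes, of which 32698 passed the quality limits and 28727 the limits on Ptprc and Sftpc. Libraries held from 10742481 to 79927159 UMIs, and no pair of libraries shared more than 17 barcodes. The limit on Hspa1a and Hspa1b, which encode inducible HSP70 chaperones, removed 10327 cells, and it did so unevenly. It removed 86.0% of the alveolar cells of 2 weeks RFP replicate 1 and 79.4% of 2 weeks YFP replicate 1, against 58.1% and 33.8% in replicate 2 of those groups, 22.1% and 18.1% in 4 days RFP and YFP replicate 1, and between 4.40% and 7.19% in the other 4 libraries. Of the removed cells, 4850 had at least 2 UMIs of both Fosb and Atf3. By counts of Xist and of Y-linked genes, replicate 2 of every Red2Kras group was nearly wholly male (at most 0.344% of scored cells female), replicate 1 was mixed (26.5% to 83.4% female) and both Confetti libraries were 100% female, so replicates 1 and 2 held different pools of animals.

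The rule read Fosb and Atf3, so their levels describe the choice and have no test. Median UMIs per immediate-early high cell ranged over libraries from 2 to 7 for Fosb and from 4 to 10.5 for Atf3, and the largest values in any cell were 41 and 139. Just inside the threshold were 177 cells with exactly 2 UMIs of each gene, and 919 in which the lower of both counts was 2. Just outside lay 1520 cells with 1 UMI of the scarcer gene and at least 2 of the other, and 574 with 1 of each. For the chaperone limit, 400 immediate-early high cells had 3 or 4 UMIs of Hspa1a and Hspa1b, and 295 cells with 5 or 6 were left out. The members were deeper than the comparison cells in every library, by median UMIs per cell: 4232 against 3840 in Confetti RFP, for example, and 13417 against 10203 in 2 weeks RFP replicate 1.

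The label of alveolar cells was checked against markers of other cells of the lung, since the rule had itself asked for Sftpc. Summed over the immediate-early high cells of a library, Sftpc averaged 108778 CPM over the 10 libraries, against 130041 CPM in the comparison cells. CPM are UMIs scaled for the size of each sum, and these Sftpc levels describe the choice. In 165 of the immediate-early high cells (7.34%) Sftpc made up less than 2% of the UMIs, as it did in 228 comparison cells (2.53%). Cells with at least 4 ciliated-cell genes numbered 60 of 2247 against 19 of 9007 comparison cells. The corresponding counts were 24 and 4 for endothelial genes, 13 and 11 for airway secretory genes, 11 and 5 for mesenchymal genes, 10 and 9 for macrophage genes and 0 and 2 for lymphocyte genes. The summed level of the ciliated list ranged from 74.2 to 1863 CPM over libraries, against 17.6 to 132 CPM in the comparison cells, and was higher in 10 of 10 libraries.

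Of the immediate-early high cells, 36 of 150 in Confetti YFP had under 2% Sftpc, as did 48 of 170 in 2 weeks RFP replicate 1. The Confetti YFP library stood apart in the airway secretory list, which was led by the club-cell secretoglobin Scgb1a1. There the list reached 108078 CPM against 5954 in the comparison cells of that library. In the remaining libraries that list lay between 91.1 and 28986 CPM, and it was higher than in the comparison cells in 7 of 10 libraries in all. Results are therefore also given for a stricter alveolar gate, chosen after seeing these values, that keeps cells with at least 2% Sftpc and fewer than 4 genes of every other cell type. It kept 2063 of the 2247 cells (91.8%). With it, Scgb1a1 averaged 514 CPM in the immediate-early high cells and 771 in the comparison cells.

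The share of immediate-early high cells differed widely between libraries, and replicates of the same group differed as much as any groups did. It was 3.96% of eligible cells in Confetti RFP (95% exact binomial interval 3.34% to 4.65%, counting error only) and 3.95% in Confetti YFP (3.36% to 4.62%). At 4 days the RFP libraries, replicates 1 and 2, had 12.6% and 22.1%, and the YFP libraries 9.92% and 21.4%. At 2 weeks the RFP libraries had 30.1% and 5.84%, and the YFP libraries 43.1% and 7.37%. The lowest of the 8 Red2Kras libraries thus lay above both Confetti libraries, a difference that 1 Confetti library per colour leaves without a test.

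RFP and YFP libraries did not differ in this share beyond the spread between replicates. The means were 17.7% ± 10.7 (SD, n = 4) and 20.4% ± 16.3 (SD, n = 4), a difference of -2.76 percentage points (two-sided exact permutation test, p = 0.829, adjusted over 2 comparisons 0.829). The smallest p this design allows is 0.0286. Libraries at 2 weeks had a mean of 21.6% ± 18.1 (SD, n = 4) and those at 4 days 16.5% ± 6.17 (SD, n = 4), a difference of 5.10 points (exact permutation p = 0.600, adjusted 0.829). Both tests counted every library as separate, although same-numbered RFP and YFP libraries of a time were treated as pairs elsewhere. RFP and YFP libraries of the same time and replicate number lay closer together than replicates of either colour at that time did, with differences of 2.70 and 0.756 points at 4 days and -13.0 and -1.54 at 2 weeks. Since the heat-shock limit removed most alveolar cells of 2 weeks RFP replicates 1 and 2 and YFP replicate 1, their shares refer to the minority that remained. Without that limit the difference between RFP and YFP was 6.72 points, with the opposite sign (exact permutation p = 0.543).

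**Figure D1:**
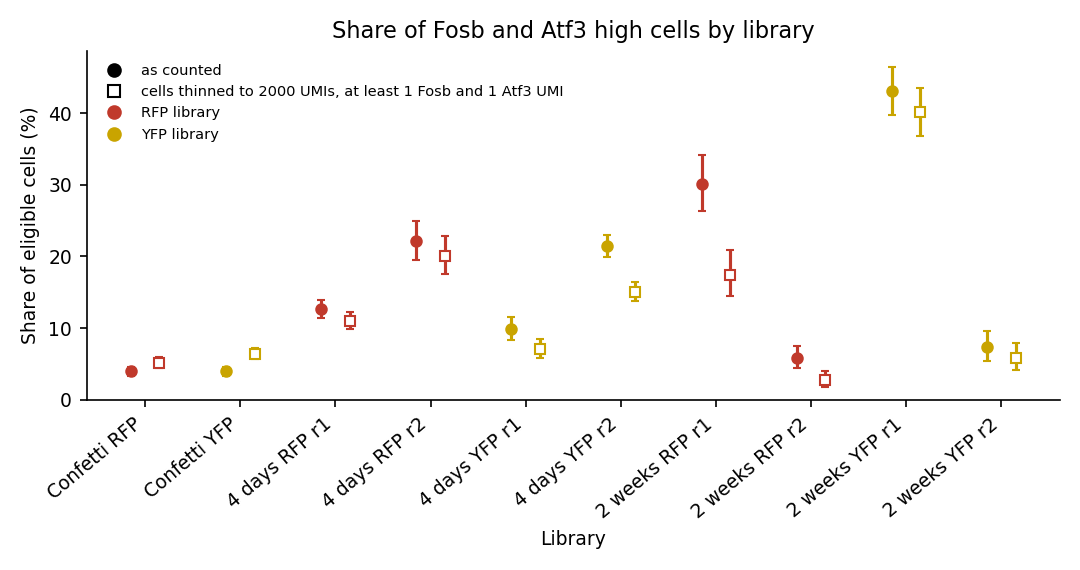
Share of eligible cells (%, vertical axis) that were immediate-early high in each of the 10 libraries (horizontal axis), with red for RFP and yellow for YFP libraries. Filled points are the shares under the rule, with 95% exact binomial intervals, and open points are shares after thinning every cell to 2000 UMIs and asking for 1 UMI of each gene. The Confetti libraries sit near 4% and the Red2Kras libraries spread from 5.84% to 43.1%, with 2 weeks replicate 1 of both colours highest by the filled points.

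The spread between libraries remained when all cells were brought to the same depth. With each cell thinned to 2000 UMIs and a threshold of 1 UMI of each gene, the share was 5.19% and 6.42% in Confetti RFP and YFP. At 4 days it was 11% in replicate 1 and 20.1% in replicate 2 of RFP, and 7.08% and 15.1% for YFP. The values at 2 weeks were 17.5% and 2.71% for RFP and 40.1% and 5.84% for YFP. On this scale 2 weeks RFP replicate 2 lay below both Confetti libraries and 2 weeks YFP replicate 2 between them.

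Besides Fosb and Atf3, the cells were proposed by Egr1, Nfkbiz, Thbs1 and Cxcl1, whose levels are therefore given as a description with no test. Egr1 encodes a zinc-finger factor induced by growth factors and injury. In the immediate-early high cells it had a lowest, median and highest level of 52.4, 308 and 694 CPM over the 10 libraries, against 7.77, 25.1 and 61.2 CPM in the comparison cells. Thbs1 encodes thrombospondin 1, a matricellular protein, and was at 39.8, 182 and 284 CPM against 9.52, 28.5 and 68.9. Nfkbiz encodes a nuclear IκB protein that acts as a cofactor of NF-κB, and was at 49.8, 143 and 246 CPM against 5.48, 40.0 and 56.9. All 3 genes were higher in the immediate-early high cells in 10 of 10 libraries, by fitted log2 fold changes of 3.39, 2.28 and 1.91, although the ranges of Egr1, Thbs1 and Nfkbiz over libraries overlapped between the 2 kinds of cell.

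Cxcl1, which encodes a neutrophil-attracting chemokine, was the least even of the markers. Its levels in the immediate-early high cells were 59.5 CPM in Confetti RFP and 69.4 CPM in Confetti YFP. The RFP libraries had 146 and 89.3 CPM at 4 days and 258 and 41.5 CPM at 2 weeks (replicates 1 and 2). The YFP libraries had 9.05 and 15.9 CPM at 4 days and 101 and 9.96 CPM at 2 weeks. Comparison cells ranged from 6.80 to 48.5 CPM. The marker was higher in the immediate-early high cells in 8 of 10 libraries, the exceptions being 4 days YFP replicate 2 and 2 weeks RFP replicate 2. A UMI of Cxcl1 was found in 2.08% to 42.4% of the immediate-early high cells of a library and in 1.85% to 16.9% of comparison cells, whereas for Fos, which the rule did not read, the ranges were 89.4% to 100% and 31.2% to 56.8%.

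Immediate-early high cells differed from comparison cells of the same library in many genes beyond those that chose them. UMIs were summed over each kind of cell in each library and tested by edgeR's quasi-likelihood test with the library as a block and Benjamini-Hochberg adjustment over all genes. Of 11173 genes tested, 1154 (10.3%) were higher and 880 (7.88%) lower at an adjusted p under 0.05, 2034 (18.2%) in all, around a median log2 fold change of -0.03. With the stricter alveolar gate, 811 of 10125 genes (8.01%) were higher and 621 (6.13%) lower, and 1217 of the 2034 genes were called again in the same direction, of 1712 that could be tested. Within depth quartiles, 926 of 1757 were called again in the same direction. That setting kept cells of both kinds with UMIs between the lower and upper quartile of the immediate-early high cells of their library. Since the cells were picked for 2 genes of the immediate-early response, genes that accompany Fosb and Atf3 in these libraries describe that choice as well as the cells.

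The 15 largest rises that went the same way in all 10 libraries, with a mean of at least 20 CPM, were mainly transcription factors. Klf2, a Krüppel-like zinc-finger factor, led them. It had a lowest, median and highest level of 115, 178 and 311 CPM over libraries against 5.86, 17.4 and 39.7 CPM in the comparison cells. The log2 fold change was 3.49 with a standard error (given after ± from here on) of 0.22, at an adjusted p of 1.44e-08 by edgeR's quasi-likelihood test. No immediate-early high sum fell within the comparison range. The related factors Klf6 and Klf4 rose by 2.37 ± 0.14 (adjusted p = 1.1e-08) and 2.29 ± 0.11 (adjusted p = 3.86e-10) on the log2 scale. Nr4a1, an orphan nuclear receptor, rose by 2.31 ± 0.16 (adjusted p = 5.45e-08), and Csrnp1, a nuclear regulator of transcription, by 2.54 ± 0.16 (adjusted p = 2.4e-08). The levels of Klf6, Klf4, Nr4a1 and Csrnp1 did not overlap between the 2 kinds of cell across libraries either.

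Other subunits of AP-1 rose as well, the FOS-family gene Fos and the genes Jun and Junb, whose proteins pair with those of the FOS family. Fos was at 859, 1207 and 1920 CPM (lowest, median and highest library) against 62.8, 202 and 322 in the comparison cells, a log2 fold change of 2.79 ± 0.18 (adjusted p = 2.25e-08, edgeR). Jun was at 796, 1238 and 1853 CPM against 101, 227 and 290, a log2 fold change of 2.68 ± 0.15 (adjusted p = 4.31e-09). Junb was at 412, 900 and 1120 CPM against 142, 197 and 233, a log2 fold change of 2.04 ± 0.09 (adjusted p = 2.25e-10). For none of these genes did the libraries overlap, and all 3 were plentiful even in cells with no UMI of Fosb and Atf3.

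Other large rises had other roles. Nfkbia encodes IκBα, the inhibitor that NF-κB itself induces, and rose by 2.27 ± 0.20 on the log2 scale (adjusted p = 6.38e-07, edgeR), from a median of 94.2 to 502 CPM. Areg encodes amphiregulin, a ligand of the EGF receptor, and rose by 2.01 ± 0.27 (adjusted p = 7.15e-05), from a median of 72.6 to 464 CPM. Its libraries overlapped, since comparison cells reached 677 CPM in 1 library and immediate-early high cells were as low as 113. Gem, a small GTPase, rose by 2.32 ± 0.21, Ier5, a stress-induced regulator of transcription, by 2.11 ± 0.09 and Ifrd1, a transcriptional coregulator, by 2.02 ± 0.11. Gm26532, a long noncoding RNA, rose by 3.02 ± 0.17 (adjusted p = 4.43e-09). It lies at chr8:84208920-84209609 (GRCm38, plus strand) over the microRNA gene Mir24-2 on the same strand, so which of them the counts belong to is uncertain.

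**Figure D2:**
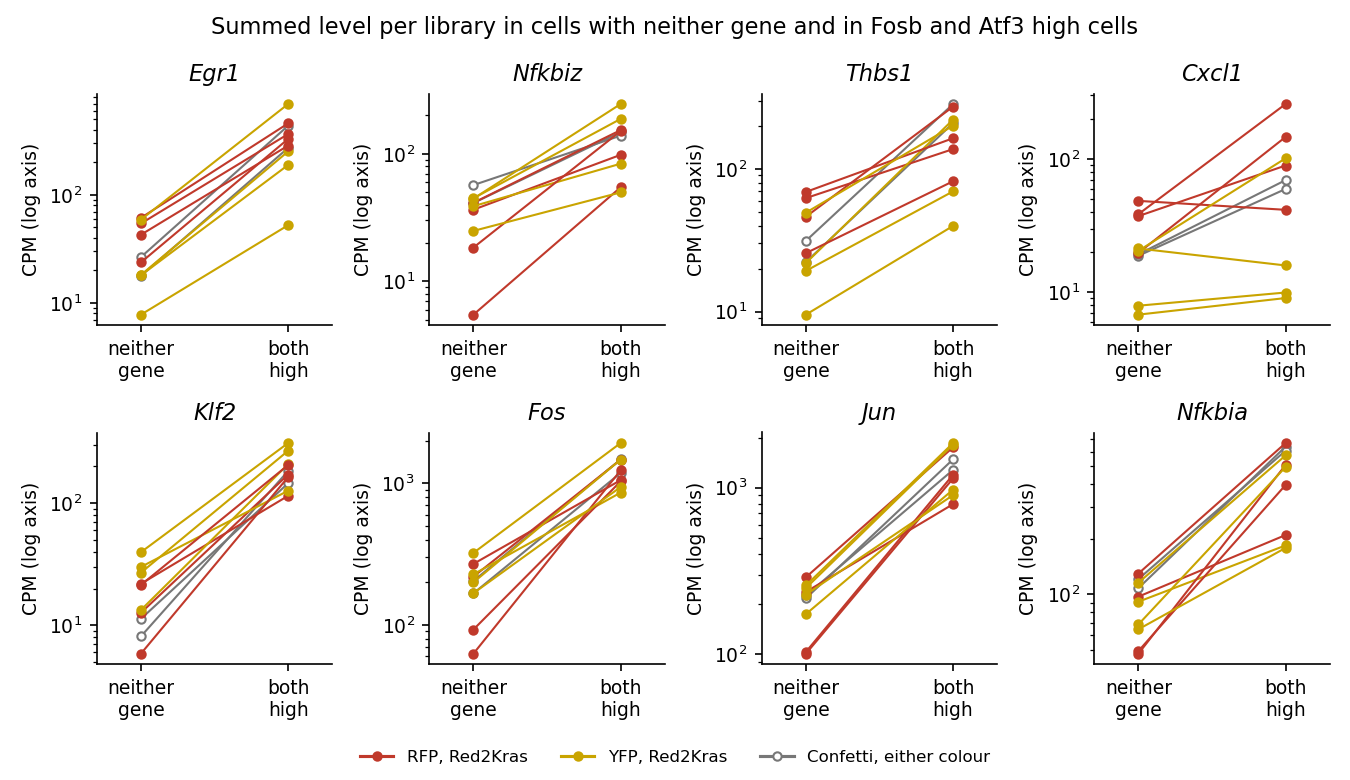
Summed level per library (CPM, log axis) in cells with neither Fosb nor Atf3 and in immediate-early high cells, 1 panel per gene and 1 line per library, coloured red for Red2Kras RFP, yellow for Red2Kras YFP and grey with open points for Confetti. Fos, Jun and Klf2 climb in every library with no overlap, while the lines of Cxcl1 spread from 9.05 to 258 CPM on the right and go down in 2 libraries.

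Stretches of 100 bases before a RefSeq start of 6 of these genes are shown. The data single these genes out, and their RefSeq promoter windows (GRCm38.p6) hold letters that factors of the response are known to bind. Fosb and Atf3 lie at chr7:19302696-19310051 and chr1:191170296-191218039, both on the minus strand, and Cxcl1 at chr5:90891241-90893115 on the plus strand (gene spans, GRCm38). The 250 bases before each start were searched on both strands for the EGR motif GCGNGGGCG, the cyclic-AMP response element TGACGTCA, the AP-1 motif TGANTCA, the κB motif and the CArG box of serum response factor. The cyclic-AMP letters do not contain the AP-1 letters. Windows were found for 15 of the 21 genes made up of the 6 markers and the 15 largest rises, and 10 of the 15 held a match. Capitals mark the match, an EGR motif in Fosb, Klf2 and Nr4a1 (on the other strand in Nr4a1), a κB motif in Cxcl1 (matches on both strands, overlapping by all but 1 base) and Nfkbia (on the other strand), and the cyclic-AMP response element in Areg. The stretches are chr7:19310046-19310145 (minus), chr8:72318817-72318916 (plus), chr15:101266740-101266839 (plus), chr5:90891129-90891228 (plus), chr12:55492648-55492747 (minus) and chr5:91139492-91139591 (plus), in the order given and each 5′ to 3′ on the strand of its gene. The Nr4a1 stretch lies inside the gene span (chr15:101254269-101274795), before a start within that span.
Fosb: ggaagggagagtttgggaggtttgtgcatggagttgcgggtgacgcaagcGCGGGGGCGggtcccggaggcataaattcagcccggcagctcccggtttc
Klf2: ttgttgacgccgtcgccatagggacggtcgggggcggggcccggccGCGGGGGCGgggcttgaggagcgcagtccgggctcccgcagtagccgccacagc
Nr4a1: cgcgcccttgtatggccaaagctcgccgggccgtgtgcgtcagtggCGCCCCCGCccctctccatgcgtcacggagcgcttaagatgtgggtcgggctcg
Cxcl1: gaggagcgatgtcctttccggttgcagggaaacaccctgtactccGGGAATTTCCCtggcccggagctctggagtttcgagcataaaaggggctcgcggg
Nfkbia: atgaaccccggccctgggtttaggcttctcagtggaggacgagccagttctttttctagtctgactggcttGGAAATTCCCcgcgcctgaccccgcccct
Areg: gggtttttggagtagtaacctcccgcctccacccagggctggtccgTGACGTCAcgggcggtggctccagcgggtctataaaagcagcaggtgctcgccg

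A match describes letters in a window and is neither a bound site nor a cause. Among all 32851 windows, 4.70% held the EGR motif, against 9.0% of windows of the genes tested, 10.9% of those of genes called higher and 5.90% of those of genes called lower. Among the 60 windows of the AP-1, transcription-factor and feedback genes described next, 16 (26.7%) held it. The cyclic-AMP response element was in 1.55% of all windows, 2.60% of tested, 3.88% of higher, 2.31% of lower and 10.0% of the 60 windows. The CArG box was in 1.47%, 1.19%, 1.5%, 2.31% and 13.3%, and the κB motif in 3.90%, 4.55%, 5.73%, 4.51% and 5.00%, of the same sets in that order. The AP-1 letters were in 6.75% of all, 4.59% of tested, 6.00% of higher, 5.43% of lower and 3.33% of the 60 windows.

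Most genes of the immediate-early response were higher together, where 10.3% of all genes were higher and 7.88% lower (8.01% and 6.13% with the stricter gate). Of the 13 AP-1 subunits and partners tested, 9 were called higher and 0 lower, with a median log2 fold change of 1.49, where the median of all genes tested was -0.03. Of 22 other immediate-early transcription factors, 21 were higher and 1 lower (median 1.62). The exception was Id2, an inhibitor of basic helix-loop-helix factors. Of 25 genes of feedback, mRNA decay and growth arrest, 22 were higher and 0 lower (median 0.99). Dusp1, a phosphatase that inactivates MAP kinases, rose by 1.95 ± 0.17, Zfp36, which speeds the decay of AU-rich transcripts, by 1.82 ± 0.12, and Ppp1r15a, a phosphatase subunit that restores translation, by 1.65 ± 0.14 on the log2 scale (adjusted p of 4.78e-07, 2.58e-08 and 3.82e-07 by edgeR). The counts higher in these lists were 9 of 13, 20 of 22 and 20 of 25 under the stricter gate. Some members were near 0 in the comparison cells, such as Egr2 and Fosl1, at medians of 0.247 and 0.595 CPM there. Such genes could pass the filter on low counts through the immediate-early high cells, so their calls are a description.

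Part of the inflammatory and secreted genes were higher, and the shares of all genes were 10.3% higher and 7.88% lower. Of 20 NF-κB subunits, inhibitors and targets, 7 were higher and 0 lower, among them the inhibitors Tnfaip3 (1.94 ± 0.28, adjusted p = 0.00012) and Nfkbia and the stress-response gene Ier3 (1.46 ± 0.11, adjusted p = 7.19e-08). Of 16 chemokines, cytokines and colony-stimulating factors, 6 were higher and 2 lower, and 4 higher and 3 lower of 11 with the stricter gate. The neutrophil chemokine Cxcl2 rose by 2.29 ± 0.40 (adjusted p = 0.000785), from a median of 9.61 to 39.0 CPM, and was higher in 8 of 10 libraries. Il1b, which encodes interleukin 1β and is made mostly by myeloid cells, was at a median of 9.33 CPM against 0.749, and with the stricter gate it was too low to be tested. Of 16 matricellular, protease-system and growth-factor genes, 7 were higher and 0 lower, including Cyr61, a matricellular protein (2.40 ± 0.16, adjusted p = 3.1e-08), and the stress cytokine Gdf15 (1.77 ± 0.14, adjusted p = 2.81e-07).

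Most chaperone genes and some other stress genes were higher, although cells with much Hspa1a and Hspa1b had been left out. The shares among all genes were again 10.3% higher and 7.88% lower. Of 12 other heat-shock chaperones, 10 were higher and 0 lower (median log2 fold change 0.97). Dnajb1, the HSP40 partner of HSP70, rose by 1.95 ± 0.13 (adjusted p = 2.58e-08, edgeR) and the small heat-shock protein Hspb8 by 1.57 ± 0.11 (adjusted p = 6.48e-08). The limit let up to 4 UMIs of Hspa1a and Hspa1b through, and the median per cell was 0 to 2 in the immediate-early high cells of a library and 0 or 1 in the comparison cells. How far residual heat-shock induction goes with these rises was not tested. Of 18 genes of ATF4 and the unfolded protein response, 9 were higher and 0 lower, including Ddit3, which encodes the stress factor CHOP (1.23 ± 0.10), and Atf4 itself (0.92 ± 0.08). Of 10 p53 targets, 4 were higher, including the cell-cycle inhibitor Cdkn1a (1.16 ± 0.10) and the proapoptotic gene Bbc3 (0.90 ± 0.10), both in 10 of 10 libraries. The stricter gate gave 9 of 12 chaperones (median 0.64), 7 of 18 ATF4 and unfolded protein response genes (median 0.25) and 3 of 10 p53 targets higher.

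Many surfactant and AT2 identity genes were lower. Of 20 tested, 0 were higher, 12 lower and 8 not called, against 10.3% higher and 7.88% lower among all genes, with a median log2 fold change of -0.29. Sftpb, which encodes surfactant protein B, was at 3644, 5385 and 7853 CPM (lowest, median and highest library) against 6250, 7804 and 9148, and fell by 0.51 ± 0.09 (adjusted p = 0.000815, edgeR) with a decrease in 10 of 10 libraries. The lipogenic genes Fabp5 and Scd1 had log2 fold changes of -0.62 ± 0.15 (adjusted p = 0.00914) and -0.62 ± 0.18 (adjusted p = 0.0242). Under the stricter gate 7 of 20 were lower, and the median was -0.18.

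Genes of other alveolar states split in both directions, in small lists that are to be read against 10.3% higher and 7.88% lower among all genes (8.01% and 6.13% with the stricter gate). Of 12 genes of primed AT2 cells, the inflammation-associated AT2 state, 2 were higher and 5 lower. The metallothioneins Mt2 (1.22 ± 0.24) and Mt1 (0.99 ± 0.21) rose and the secreted gene Retnla had a log2 fold change of -1.06 ± 0.24 (adjusted p = 0.00554). Of 15 genes of damage-associated transient progenitors (DATPs), an intermediate between AT2 and AT1 cells, 7 were higher and 1 lower, including the keratin Krt18 (1.25 ± 0.23, adjusted p = 0.00138) and the 14-3-3 protein Sfn (1.15 ± 0.15, adjusted p = 5.09e-05). It was 5 higher and 4 lower of 14 under the stricter gate. Of 13 AT1 genes, 3 were higher and 2 lower, and 1 and 3 of 11 with the stricter gate. Igfbp2, among the 3, averaged 0.116 CPM in the comparison cells and passed the filter on low counts through the immediate-early high cells. Ager, the AT1 receptor for glycation end products, had a log2 fold change of -0.35 ± 0.07 (adjusted p = 0.00138).

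The number of cell-cycle genes called depended on the gate, while their median log2 fold change was 0.53 under the rule and 0.65 with the stricter gate. Under the rule, 3 of 18 were higher and 1 lower, near the 10.3% and 7.88% of all genes, including the topoisomerase Top2a (0.96 ± 0.29, adjusted p = 0.0294), which was higher in only 6 of 10 libraries. Of the same 18, the stricter gate gave 9 higher and 1 lower, against 8.01% and 6.13% of all genes.

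Markers of other cell types moved with the immediate-early genes under the rule. Many of them were near 0 in the comparison cells and passed the filter on low counts through the immediate-early high cells, so the counts are a description and the 10.3% higher among all genes (8.01% with the stricter gate) is no measure for them. They were 9 of 9 ciliated genes called higher, as well as 5 of 10 macrophage, 4 of 9 endothelial, 3 of 7 mesenchymal and 3 of 6 airway secretory genes, and 0 of 1 lymphocyte gene. Tmem212, a ciliated-cell gene, was at a median of 41.8 CPM against 3.17. With the stricter gate 1 of 2 ciliated, 2 of 3 macrophage, 0 of 2 endothelial, 0 of 1 mesenchymal and 0 of 4 airway secretory genes were higher, the others being too low to test.

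**Figure D3:**
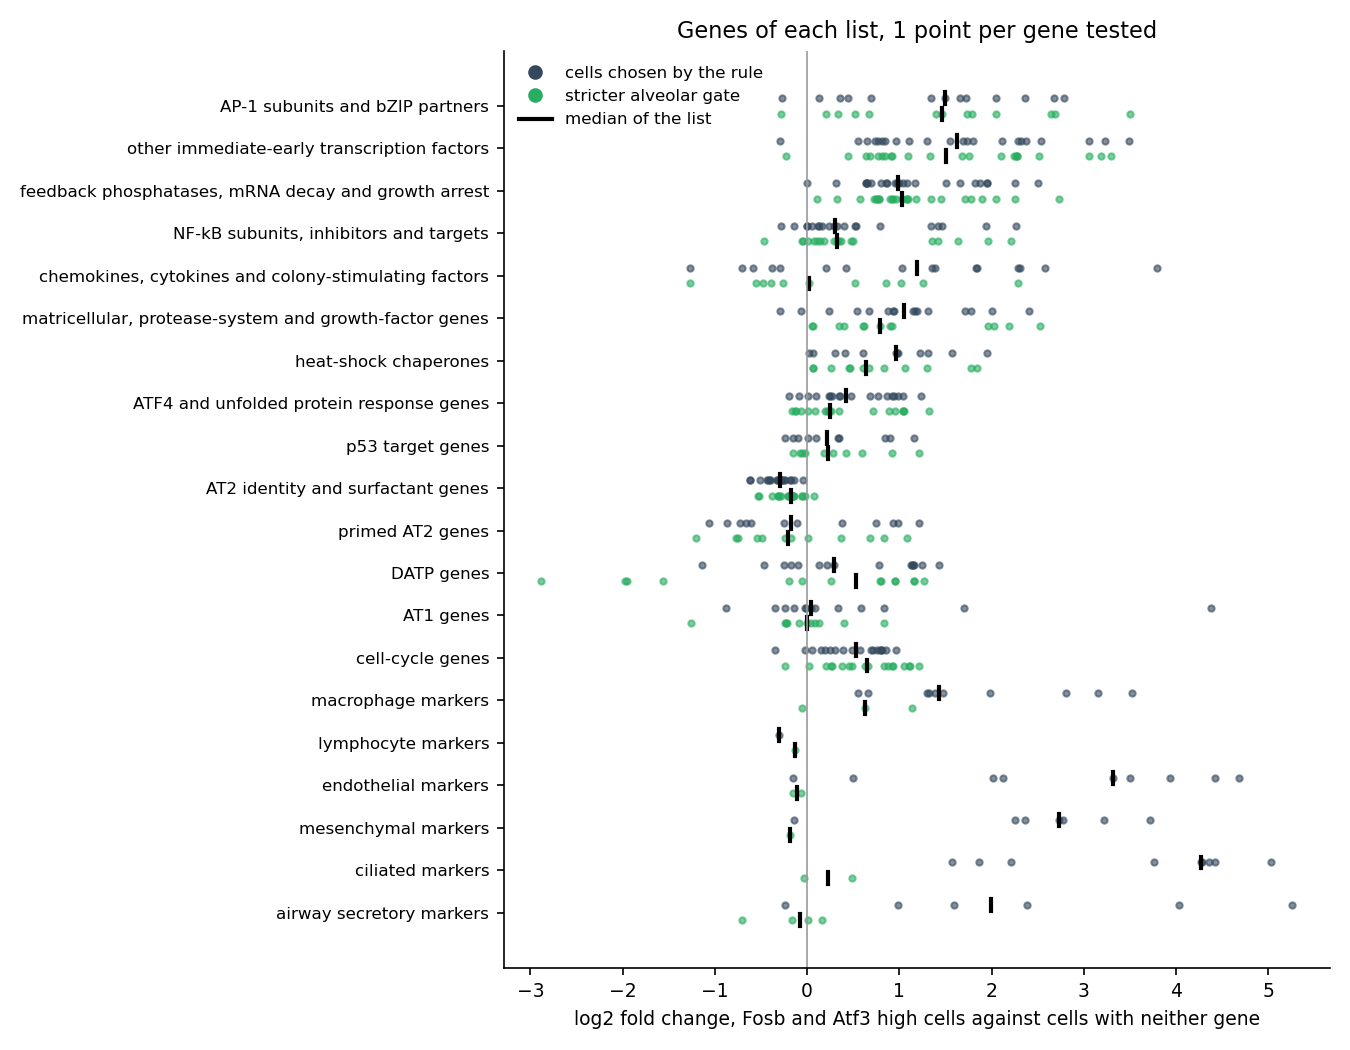
Log2 fold change of each gene tested (horizontal axis), immediate-early high against comparison cells, for the gene lists (vertical axis), with 1 point per gene and a bar at the median of the list, dark for cells chosen by the rule and green for the stricter alveolar gate. The AP-1, transcription-factor and feedback lists lie to the right of 0 under both, AT2 identity lies to the left, and the ciliated, endothelial and mesenchymal lists lose most of their points with the stricter gate.

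The largest falls were of another kind. The 10 genes were Ccnb1ip1, AY036118, Gm42418, Fbp2, Lars2, Phgr1, Snhg20, Gm26917, Tmem213 and Lrg1. The long noncoding RNAs AY036118, Gm42418 and Gm26917 had log2 fold changes of -2.04 ± 0.31, -1.37 ± 0.25 and -1.04 ± 0.09, and lie next to each other at chr17:39843013-39848788 (GRCm38). AY036118 also overlaps the gene CT010467.1 on the same strand, so which of them its counts belong to is uncertain. Gm42418 overlaps both AY036118 and CT010467.1 on the opposite strand. Gm42418 was the most abundant, at 192, 377 and 1229 CPM (lowest, median and highest library) against 422, 1012 and 2388. Ccnb1ip1 (-2.30 ± 0.33, adjusted p = 0.00012, edgeR) lies at chr14:50789248-50807732 over Rpph1, the RNA component of ribonuclease P, on the same strand, and the counts may belong to either.

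The rest of the falls were in protein-coding genes and Snhg20, a noncoding host gene of small nucleolar RNA. Lars2, a mitochondrial leucyl-tRNA synthetase, was at 4.06, 11.3 and 22.2 CPM against 18, 29.7 and 44.2, a log2 fold change of -1.32 ± 0.18 (adjusted p = 7.23e-05, edgeR). Lrg1, a secreted glycoprotein of primed AT2 cells, was at 222, 827 and 2274 CPM against 616, 1384 and 2765, a log2 fold change of -0.87 ± 0.14 (adjusted p = 0.000465). The libraries of both genes overlapped, while within each library the immediate-early high cells were the lower. Fbp2, a fructose-bisphosphatase, had -1.33 ± 0.28, Phgr1 -1.20 ± 0.23 and Tmem213 -0.99 ± 0.16, and Snhg20 had -1.13 ± 0.12.

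Mitochondrial transcripts took a smaller share of UMIs in the immediate-early high cells. The median share per library averaged 2.55% against 3.02% in the comparison cells, a difference of -0.474 ± 0.354 percentage points (SD, n = 10). It was lower in 10 of 10 libraries (two-sided exact permutation test over sign flips, p = 0.00195, the smallest that 10 libraries can give). That test counted every library as separate, although same-numbered RFP and YFP libraries of a time were treated as pairs elsewhere. The p-value is therefore smaller than independent pools of animals would allow. The rule had set only the upper limit of 15% for both kinds of cell. Among cells of both kinds within the depth quartiles of the immediate-early high cells, the difference was -0.347 points, lower in 9 of 10 libraries (exact permutation p = 0.00781).

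Levels followed the number of Fosb and Atf3 UMIs in a cell, also below the threshold. Eligible cells were ordered by the lower of both counts: 9007 cells with neither gene, 5052 with only 1 of the genes, and 2094, 1369, 602 and 276 cells in which the lower count was 1, 2 to 3, 4 to 7 and 8 or more. Averaged over libraries, Fos was at 187, 421, 656, 936, 1415 and 2546 CPM in these tiers and Jun at 201, 488, 756, 1044, 1562 and 2377 CPM. Klf2 went from 18.5 CPM in cells with neither gene to 366 in the highest tier, Egr1 from 33.1 to 851 and Nfkbia from 86.7 to 744. No step in the order broke the climb of Fos, Jun, Klf2, Egr1 or Nfkbia, and the mean already doubled or more for each between cells with neither gene and cells with 1 of them.

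Several AT2 and primed AT2 genes ran the other way along the same order. Sftpb went from 7607 to 4566 CPM, the chitinase-like gene Chil1 from 2330 to 951, the lipocalin Lcn2 from 4658 to 2839 and Lrg1 from 1414 to 655, while the keratin Krt8 went from 357 to 979 CPM. The ciliated-cell factor Foxj1 also climbed, from 0.639 to 85.5 CPM, so the highest tiers held more ciliated transcripts. Cells with more UMIs reach a higher tier more easily. Only libraries with at least 10 cells in a tier entered its mean, 7 of them for the highest tier. Means of different tiers thus cover different libraries, so the tiers are a description with no test.

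**Figure D4:**
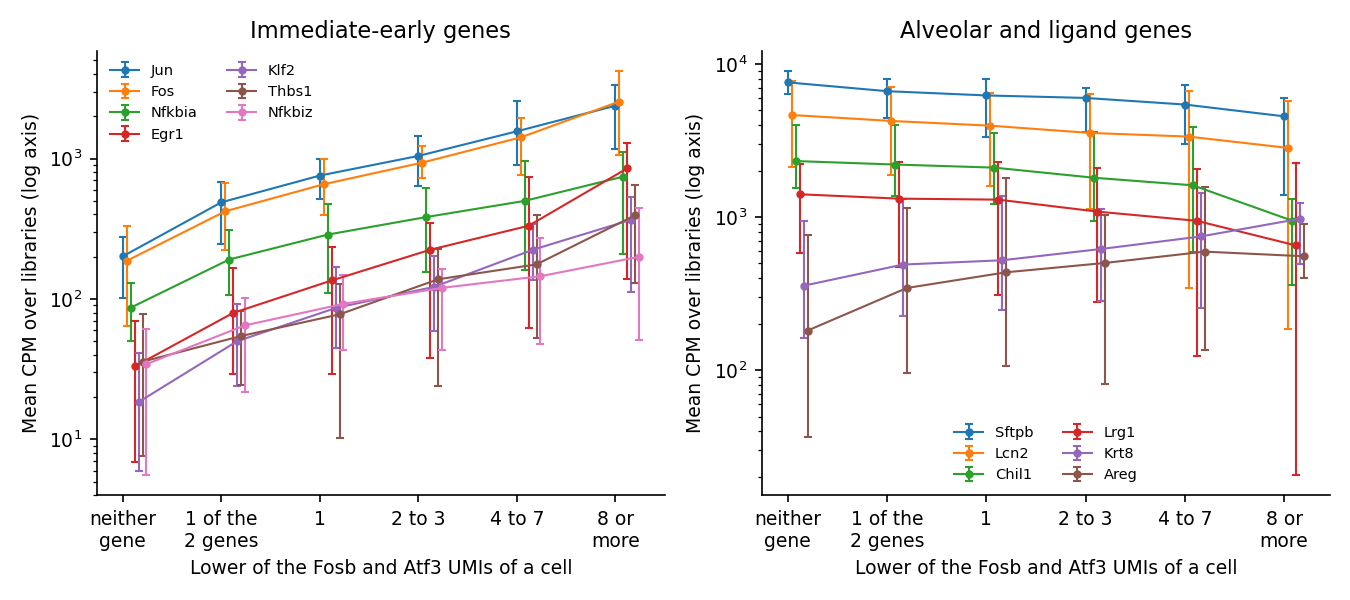
Mean CPM over libraries with at least 10 cells in the tier (log axis) against the lower of the Fosb and Atf3 UMIs of a cell. Bars run from the lowest to the highest library. Fos, Jun, Egr1 and Klf2 climb from cells with neither gene to cells with 8 or more, and Sftpb, Lcn2, Lrg1 and Chil1 decline.

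The genes with the largest rises and those of the immediate-early lists had short spans, whereas genes called higher as a whole were close to all genes tested. Median gene span was 23457 bp for all genes tested, 4235 bp for the 15 largest rises, 5154 bp for the other immediate-early transcription factors, 5260 bp for the feedback genes and 11141 bp for the AP-1 genes. The median was 19738 bp for genes called higher and 10902 bp for genes called lower. Short spans were not particular to the rises and the immediate-early lists. The median was also 4363 bp for the 10 largest falls and 2964 bp for the primed AT2 genes, while the AT1 list was at 28134 bp. The letters TATTTAT, a core of the AU-rich elements that mark transcripts for fast decay, were in the annotated 3′ untranslated region of 27.3% of tested coding genes, 31.4% of those called higher and 17.2% of those called lower. They were in 9 of 13 AP-1 genes (69.2%), 9 of 22 other transcription factors (40.9%), 16 of 25 feedback genes (64.0%) and 12 of 16 matricellular and growth-factor genes (75%), but in 1 of 18 ATF4 and unfolded protein response genes. These lists were chosen by hand, and the sets differed in the length of the region. Its median was 930 bp for all genes tested, 870 bp for genes called higher, 537 bp for genes called lower and 1224 bp for the AP-1 genes.

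Whether the immediate-early contrast itself differed between conditions was tested by interaction terms over the 8 Red2Kras libraries, and few genes did. Between RFP and YFP, 6 of 10760 genes (0.0558%) were called, 3 in each direction, and 412 had an unadjusted p under 0.05. They were Ccl20, Tagln and Acta2, and Hbb-bt, Igkc and Hba-a2. Between 2 weeks and 4 days, 22 genes (0.204%) were called, 6 higher and 16 lower at 2 weeks, and 860 had an unadjusted p under 0.05.

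Several of these calls rested on a few libraries. Igkc, an immunoglobulin gene, was at 2960 CPM in the immediate-early high cells of 4 days YFP replicate 1 and at most 1.18 CPM in those of any other library. The smooth-muscle genes Acta2 and Tagln were at 169 and 107 CPM in the immediate-early high cells of 2 weeks RFP replicate 1 and at most 4.75 CPM in those of the other libraries. In the comparison cells they were at 52.2 and 37.2 CPM in 2 weeks RFP replicate 1 and at 20.5 and 45.7 CPM in 2 weeks YFP replicate 1. Hspb1, a small heat-shock protein, had a larger contrast at 2 weeks. It was then at 357, 112, 1316 and 1232 CPM in the immediate-early high cells (RFP replicates 1 and 2, YFP replicates 1 and 2) against 81.3, 26.8, 398 and 305 CPM in the comparison cells. At 4 days it was at 450, 158, 464 and 247 CPM against 263, 152, 222 and 160 (interaction adjusted p = 0.00615, edgeR). With the stricter gate 2 and 9 genes were called, and within depth quartiles 0 and 6 (263 and 508 at an unadjusted p under 0.05).

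RFP and YFP immediate-early high cells, mutant and wildtype, differed in 10 genes in the fit without pairing of libraries, and in more with it. With time as a term, 10 of 9049 genes (0.111%) were called by edgeR's quasi-likelihood test, all higher in RFP, and 982 had an unadjusted p under 0.05. Cldn4, a tight-junction protein, was at 24.2, 63.0, 139 and 121 CPM in RFP (4 days replicates 1 and 2, then 2 weeks) against 0.838, 5.98, 5.44 and 10.3 in YFP, a log2 fold change of 3.75 ± 0.46. Plaur, the urokinase receptor, was at 31.3, 82.4, 205 and 64.2 CPM against 2.51, 1.04, 13.9 and 6.86, a log2 fold change of 4.13 ± 0.55. Neither gene overlapped between the colours. Both were low in YFP and could pass the filter on low counts through the RFP libraries, so their values are a description.

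Pf4, a chemokine known best from platelets, was at 85.9, 147, 65.0 and 44.8 CPM in RFP against 21.8, 19.8, 18.8 and 17.1 in YFP (log2 fold change 2.10 ± 0.29, adjusted p = 0.0286, edgeR). Prss22, a serine protease, was at 3.56, 29.9, 69.8 and 48.4 CPM against 0, 0, 1.48 and 0, and the granzyme gene Gzme at 1.19, 17.8, 66.1 and 61.8 CPM against 0, 0.260, 0.989 and 0. The other 5 were Nt5e, Etv4, Itga2, Krt7 and Cxcl3. Prss22, Gzme, Nt5e, Etv4 and Itga2 were near 0 in most YFP libraries and passed the filter on low counts through the RFP libraries, so their values are a description. Krt7, a keratin of simple epithelia, averaged 555 CPM in RFP and 112 in YFP and Cxcl3, a neutrophil chemokine, 98.0 and 15.2. For all 10 genes the lowest RFP library lay above the highest YFP library, except Itga2, where YFP reached 9.40 CPM and RFP was as low as 3.96. The count depended on the libraries used. Leaving out 1 library gave 0 to 45 genes, with 0 without 2 weeks RFP replicate 1, 2 weeks YFP replicate 1 or 2 weeks YFP replicate 2 (538, 579 and 823 genes at an unadjusted p under 0.05), and 1 without 4 days YFP replicate 2. Under the stricter gate 5 genes were called. Krt7 had a log2 fold change of 1.20 there (adjusted p = 0.339), down from 2.23, and Pf4 had 2.14 (adjusted p = 0.0934). Cldn4 had a log2 fold change of 3.75, as before, and was not called.

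The RFP and YFP libraries of the same time and replicate number varied together, and with the pair as a block many more genes were called. Of 9598 genes tested in that fit, 480 (5.00%) were called, 333 higher and 147 lower in RFP. Leaving out 1 pair gave 45 to 705 genes, the fewest without 2 weeks pair 1, and the stricter gate gave 281. Of 15 DATP genes, 12 were higher and 0 lower, with a median log2 fold change of 2.16. These counts include genes near 0 in YFP that passed the filter on low counts through the RFP libraries, such as Itga2, so they are a description. Of 18 cell-cycle genes, 13 were higher and 0 lower, of 13 matricellular and growth-factor genes 7 and 0, of 14 chemokines and cytokines 7 and 2, and of 20 AT2 identity genes 0 and 6. Cldn4, low in YFP, had a log2 fold change of 3.96 ± 0.27 in this edgeR fit and 3.58 with the stricter gate, given as a description. Spp1, which encodes osteopontin, was at 0.792, 52.5, 942 and 866 CPM in RFP against 0, 0, 21.3 and 0 in YFP, and is likewise a description. Among the genes that were lower, Hp, which encodes haptoglobin, was at 288, 621, 282 and 775 CPM in RFP against 732, 1458, 907 and 2339 in YFP (-1.46 ± 0.17, adjusted p = 0.0004), and the alarmin Il33 at 109, 368, 253 and 252 CPM against 247, 772, 638 and 514 (-1.16 ± 0.16, adjusted p = 0.0016). In every pair Hp and Il33 were lower in RFP.

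Immediate-early genes were called between the colours at about the share of all genes. In the paired fit 1 of 13 AP-1 genes, 1 of 22 other transcription factors and 2 of 24 feedback genes were called, against 5.00% of all genes. Fos differed by -0.12 ± 0.28 on the log2 scale and Jun by -0.19 ± 0.32 without the block (adjusted p of 0.955 and 0.914, edgeR), which does not show that they were equal. Cxcl1 and Areg were higher in RFP in the paired fit, by 2.31 ± 0.32 (adjusted p = 0.0016) and 1.20 ± 0.29 (adjusted p = 0.0307). Without the block their values were 2.16 ± 0.64 and 1.13 ± 0.37, and both missed the threshold (adjusted p of 0.246 and 0.288).

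**Figure D5:**
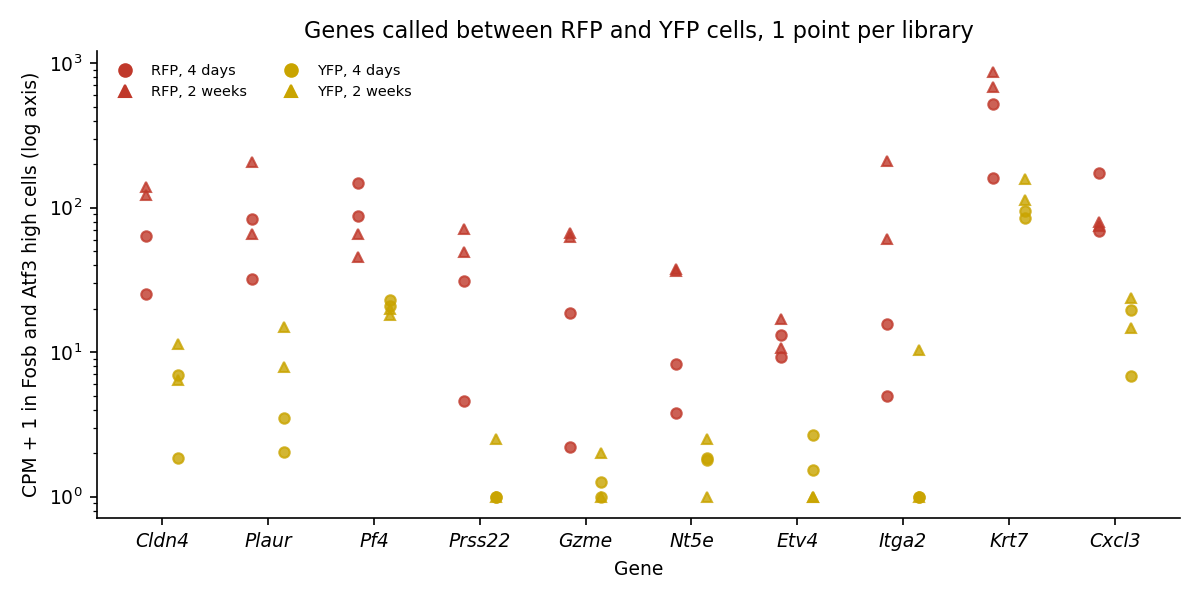
Level in immediate-early high cells (CPM + 1, log axis) of genes called between RFP and YFP (horizontal axis), with 1 point per Red2Kras library, red for RFP and yellow for YFP, circles for 4 days and triangles for 2 weeks. The 4 RFP points of Cldn4, from 24.2 to 139 CPM, lie above the 4 YFP points, of which the highest is 10.3 CPM.

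Between 2 weeks and 4 days, 1 of 9049 genes (0.0111%) was called in the immediate-early high cells, and 317 had an unadjusted p under 0.05. Procr, the endothelial protein C receptor, was at 88.7, 140 and 43.0 CPM in 2 weeks RFP replicates 1 and 2 and YFP replicate 1, but at 3.43 CPM in YFP replicate 2, against 2.77, 3.23, 1.68 and 0.781 CPM at 4 days. Procr passed the filter on low counts through the libraries where it was high, so its values are a description. With the stricter gate it was too low to test and 0 genes were called, with 222 at an unadjusted p under 0.05. Without the heat-shock limit, which had taken out most alveolar cells of 3 of the 4 libraries at 2 weeks, 0 genes were called and 902 had an unadjusted p under 0.05. DESeq2 called 2 genes.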

How the data were processed

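Whole-number UMI counts per gene and cell barcode were used as deposited by the authors, from 10x 3′ libraries. Per the labels the reads were counted with Cell Ranger 3.1.0 on GRCm38, whereas the deposited file headers name Cell Ranger 5.0.1, and FastQC 0.11.3 and MultiQC 1.8 are listed. Members and gene lists (20 lists, 307 genes) were chosen with earlier results of these data known.

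Counts were summed over the cells of each kind in each library with at least 10 members and tested in R 4.3.3 with edgeR 4.0.16 (TMM, filterByExpr, quasi-likelihood F test), with adjusted p under 0.05 as the threshold. DESeq2 1.42.0 was an alternative. Genes the rule read had no test, and the other proposed markers were tested only between colours and times. CPM of single genes in a fit are summed counts scaled by the total UMIs of the sum times its TMM factor. They therefore differ slightly between fits for the same cells. Levels by tier of Fosb and Atf3 UMIs and the summed lists of other cell types were scaled by total UMIs alone. Values on these different scales do not match exactly. Named genes were the markers, the 15 largest rises and 10 largest falls with the same sign in every library and a mean of at least 20 CPM in the higher class, the 3 largest changes of a list, and up to 5 genes each way per comparison of conditions, by p. A gene that the rule picked is not reported here by name. No doublet caller was run, and cells over 50000 UMIs were left out. Alternatives were a gate of 3 UMIs, no heat-shock limit, other cell types removed, depth quartiles, all other cells, no filter and leaving out each library. The scripts were tested on simulated data. Replicate 1 minus 2 differences of RFP and YFP correlated across 9067 genes at 0.669 (4 days) and 0.321 (2 weeks), so same-numbered libraries of a time were treated as pairs. Gene spans came from GENCODE.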

Additional observations from a re-analysis of the deposited data

Results flagged for a closer look

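Of 34 checks for a library far from the rest of its group, 1 met the criterion, and chance alone meets it in about 1 of 20. Fbp2, on the scale of log2 of CPM + 10, differed between immediate-early high and comparison cells by -2.50 in 2 weeks RFP replicate 2, where the other libraries of its kind ranged from -0.63 to -0.12.

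The difference between immediate-early high and comparison cells was itself unequal between RFP and YFP in 6 genes by the interaction term of edgeR's quasi-likelihood test. The adjusted p was 0.00539 for Ccl20, 0.0121 for Tagln, 0.0121 for Acta2, 0.000141 for Hbb-bt, 0.0107 for Igkc and 0.0121 for Hba-a2. Tagln, Acta2 and Igkc were at or near 0 in most libraries and passed the filter on low counts through few libraries, so their values describe those libraries. With the stricter gate Hbb-bt went from a fitted log2 value of -8.58 to -3.12 and Hba-a2 from -5.54 to -0.50, and neither was called (adjusted p of 1.00 for both). Of the 22 genes unequal between 2 weeks and 4 days, the 10 named by the rule had adjusted p of 0.000175 (Hbb-bt), 0.000333 (Hba-a2), 0.000898 (Hba-a1), 0.00615 (Hspb1), 0.00893 (Hbb-bs), 0.000175 (Igkc), 0.000509 (Mcpt8), 0.000898 (Krt7), 0.00622 (Ereg) and 0.00658 (Tm4sf1). Mcpt8 was at 375 and 52.9 CPM in the comparison cells of 2 weeks RFP and YFP replicate 1 and near 0 in most other sums. It passed the filter on low counts through few libraries and was too low to test with the stricter gate. Its values, like those of Igkc, are a description. Hemoglobin genes, which red blood cells carry, were uneven over libraries. Hbb-bs was at 1734 CPM in the immediate-early high cells of 2 weeks YFP replicate 1 against 38.5 in its comparison cells, and at 420 against 1440 in 2 weeks RFP replicate 1. In Confetti YFP, 4 days RFP replicate 1 and 4 days YFP replicate 1 it was at 23.5, 7.15 and 12.3 CPM against 225, 496 and 696, and in the other 5 libraries at most 11.8 CPM in either kind of cell. Krt7 was higher in the immediate-early high cells than in the comparison cells of all 4 libraries at 4 days and lower in all 4 at 2 weeks, for instance 158 against 104 CPM in 4 days RFP replicate 1 and 861 against 1190 CPM in 2 weeks RFP replicate 1. With the stricter gate neither Krt7 nor Ereg was called, though their fitted log2 values were no smaller. Krt7 had -1.43 there against -1.23 under the rule (adjusted p = 0.0669, edgeR), and Ereg -3.15 against -2.60 (adjusted p = 0.0509). The part of cells of other types in these differences was not tested.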

How the results depend on the processing

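Share of cells: the difference between RFP and YFP ran from -7.12 to 4.79 points over the fits without 1 library, was 6.72 without the heat-shock limit, 0.686 after thinning without it and -2.76 with the replicate block (exact sign-flip permutation p = 0.75, smallest possible 0.125), and that between 2 weeks and 4 days ran from -2.07 to 10.4 points without 1 library. The design could hardly bring either past the threshold. Genes called in immediate-early high against comparison cells numbered 1449 to 2118 without 1 library, 1038 with other cell types removed and 1034 within depth quartiles, where fewer genes were tested, and DESeq2 called 1116 higher and 611 lower. All 25 genes that the naming rule picked there kept their direction in 450 alternatives, and 1 call was lost (Phgr1, -0.41 without the heat-shock limit, adjusted p = 0.0817, edgeR).

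The contrast was called unequal between RFP and YFP in 2 genes with the stricter gate (chosen after seeing the data), 0 within depth quartiles (263 at an unadjusted p under 0.05), 46 without a filter and 0 to 12 without 1 library, 0 without 2 weeks YFP replicate 1 (297 at an unadjusted p under 0.05). Between times it did so in 9, 6, 191 and 12 to 61 genes. Direction turned for Igkc, whose fitted log2 value ran from -16.31 to 1.36 without 1 library (0.56 and 1.36 without 4 days YFP and RFP replicate 1), for Hba-a2, from -6.08 to 2.13 without 1 library (2.13 without 2 weeks YFP replicate 1) and 2.40 within depth quartiles, and for Tm4sf1, at 1.45 with the stricter gate.

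Between RFP and YFP members, 2 genes were called without the heat-shock limit, 0 with a gate of 3 UMIs (602 at an unadjusted p under 0.05), 26 with other cell types removed, 5 with the stricter gate, 376 without a filter, 111 by DESeq2 and 0 to 45 without 1 library. The replicate block gave 480, 281 with the stricter gate, and 705, 106, 45 and 224 without 4 days pair 1 and 2 and 2 weeks pair 1 and 2. Between 2 weeks and 4 days the counts were 0, 0, 6, 0, 148 and 2 in the same order of alternatives, 1 to 9 without 1 library and 20 with the replicate block, the 0 with a gate of 3 UMIs having 154 genes at an unadjusted p under 0.05. For that comparison the libraries share only a number (correlation of replicate differences across times 0.0359 in RFP and 0.42 in YFP). The causes of these shifts were not tested. The smallest libraries had 48 and 54 members.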

Other observations

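The 4850 cells left out by the heat-shock limit with at least 2 UMIs of both Fosb and Atf3 outnumbered the immediate-early high cells themselves. They were most frequent at 2 weeks in replicate 1, with 2338 cells in RFP and 1616 in YFP, and numbered 344 and 59 in replicate 2, 254 and 95 in 4 days replicate 1, 19 and 34 in 4 days replicate 2, and 51 and 40 in Confetti RFP and YFP.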
